A study of Mus musculus with 12 samples.

Results

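Mitochondrially encoded genes are those transcribed from the circular DNA inside mitochondria (mtDNA). They were taken as the genes of the count table whose mouse symbol begins with mt-. Of the 37 such genes in the GENCODE M21 annotation, 28 had a row among the 27022 genes of the table, and these were 11 of 13 mRNA genes, 2 of 2 rRNA genes and 15 of 22 tRNA genes. The RNA came from the liver of 6 female SJL/J mice collected at 11 weeks of age. The 3 control mice ate a diet with 50 ppm iron, and the 3 iron-loaded mice were moved at 6 weeks to a diet with 2% carbonyl iron. All mice of a diet shared 1 cage, and effects of diet and cage cannot be told apart. Each RNA was made into a Trad-KAPA library (KAPA Stranded mRNA-Seq, reads from along the whole mRNA) and a 3’-LEXO library (Lexogen QuantSeq FWD, reads from near the 3’ end), which gave 12 libraries. The same mouse number in both kits is the same RNA.

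The mouse mtDNA is transcribed from both strands into long RNAs, from which tRNAs are cut out so that the mRNAs and rRNAs between them are released. The mRNAs encode subunits of the respiratory chain and the ATP synthase, the rRNAs build the mitochondrial ribosome, and the tRNAs serve translation inside the organelle. Much cellular iron is used in mitochondria, where heme and iron-sulfur clusters are made, and the liver is the main store of excess iron. Both kits select RNA by its adenine tail, which is short or missing on many mitochondrial RNAs.

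The tRNA genes are shown here because mt-Ti, mt-Tq and mt-Tm passed the diet test in 1 of the kits and because these and mt-Tl1 held most of the tRNA counts. They lie on chromosome MT of GRCm38. mt-Ti (isoleucine, bases 3706 to 3774, plus strand), mt-Tq (glutamine, 3772 to 3842, minus strand) and mt-Tm (methionine, 3845 to 3913, plus strand) are neighbours between mt-Nd1 and mt-Nd2. mt-Tl1 (leucine, 2676 to 2750, plus strand) lies between mt-Rnr2 and mt-Nd1. The sequences are given 5’ to 3’ as in GENCODE M21, with no base marked. A read of 50 bases covers most of such a gene.
mt-Ti: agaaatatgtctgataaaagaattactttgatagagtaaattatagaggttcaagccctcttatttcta
mt-Tq: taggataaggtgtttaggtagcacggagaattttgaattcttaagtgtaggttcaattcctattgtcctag
mt-Tm: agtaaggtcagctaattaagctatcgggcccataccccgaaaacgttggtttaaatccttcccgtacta
mt-Tl1: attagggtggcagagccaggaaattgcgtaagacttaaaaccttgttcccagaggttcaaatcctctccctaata

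Part of mtDNA also exists as near-identical copies on nuclear chromosomes. The deposited values count reads that mapped to a single place in the genome, so each stretch of 50 bases of every mitochondrial transcript was looked up in the annotated transcripts of all other genes. For 5 mRNA genes over 97% of these stretches were found elsewhere, namely 100% for mt-Co2, 99.9% for mt-Co3, 99.5% for mt-Atp6, 98.8% for mt-Nd4l and 98.0% for mt-Nd3. The share was 62.2% for mt-Nd4, 51.1% for mt-Co1, 8.19% for mt-Nd2, 7.61% for mt-Nd5 and 1.04% for mt-Rnr2. It was 0% for mt-Nd1, mt-Cytb, mt-Nd6, mt-Atp8, mt-Rnr1 and every tRNA gene. Only annotated transcripts were searched, so copies of mtDNA that lie between annotated genes were not seen.

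Of the 15 annotated genes that share such a stretch, 7 formed a block. The rest lie elsewhere, among them Gm13340 and Gm13341 on chromosome 2. Gm13340 (sharing with mt-Co1) had 25 to 68 counts in Trad-KAPA and 5 to 17 in 3’-LEXO. Gm13341 (sharing with mt-Co2) had 17 to 21 and 79 to 154. On chromosome 1 (minus strand, bases 24611535 to 24616197), 7 pseudogenes matched in order the piece of mtDNA from base 6381 to base 11042, and 5 of them had no mismatch to the mitochondrial gene over their length. Of the 11 mitochondrially encoded genes inside this piece, 7 had no row in the table, namely mt-Ts1, mt-Td, mt-Tk, mt-Atp8, mt-Tg, mt-Tr and mt-Nd4l. The remaining 4 had a row with hardly any counts: mt-Co2, mt-Co3, mt-Atp6 and mt-Nd3 had at most 1 count in a Trad-KAPA library and at most 46 in a 3’-LEXO library. Outside the piece 2 of 26 genes had no row, the tRNA genes mt-Tn and mt-Ty, and neither shares a stretch with another annotated transcript. The counts of mt-Co2 and mt-Co3 (subunits of cytochrome c oxidase), mt-Atp6 (a subunit of the ATP synthase) and mt-Nd3 were not read as levels.

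The clearest case is mt-Nd3, a subunit of complex I (chromosome MT, 9459 to 9806, plus strand), and its copy Gm28438 (chromosome 1, 24612775 to 24613119, minus strand). Their reference sequences differ at 1 of 345 aligned bases, T3C. Positions are counted from the 5’ end of mt-Nd3, and the base of the mitochondrial reference is given before the position. Which base these SJL/J mice carry there was not examined. The opening 120 bases of both genes are printed to show how little separates them, with the base that differs in capitals.
mt-Nd3: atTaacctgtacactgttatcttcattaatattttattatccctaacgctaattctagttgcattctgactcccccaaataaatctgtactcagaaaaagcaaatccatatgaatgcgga
Gm28438: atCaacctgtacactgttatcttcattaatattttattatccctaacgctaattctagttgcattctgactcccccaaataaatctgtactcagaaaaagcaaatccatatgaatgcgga
In 3’-LEXO mt-Nd3 had 17, 46 and 31 counts in control mice 1, 2 and 3 and 43, 30 and 25 in iron-loaded mice 1, 2 and 3, and in Trad-KAPA it had 0 in every library. Gm28438 had 721, 1331 and 1520 counts in the 3’-LEXO control libraries and 1876, 1170 and 1500 in the iron-loaded ones, against 4 to 17 in Trad-KAPA. The pseudogene was thus counted far more often than the mitochondrial gene in all 6 3’-LEXO libraries. Which of the 2 places these reads came from cannot be told from the counts. The other 6 copies of this block had 0 to 8 counts in Trad-KAPA and 0 to 62 in 3’-LEXO.

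The libraries held 10724672 to 16553616 counts, the lowest 2 being the 3’-LEXO libraries of iron-loaded mice 2 and 3. The profile of iron-loaded mouse 1 stood apart in both kits. Its chi-square per degree of freedom against the other 2 iron-loaded mice was 49.5 to 59.8, while it was 5.97 to 5.98 between those 2 and 18.5 to 35.9 among control mice. Diet calls and shares of the mitochondrially encoded genes are given with and without it, as are those of Mgme1 and Trnt1. The share of the tRNA genes other than mt-Ti, mt-Tm and mt-Tq is given only with it. All 7 hepatocyte markers were present, with a sum of 124551 to 164366 CPM (counts per 1000000 counts of the library) in Trad-KAPA and 45998 to 70748 in 3’-LEXO, and 0 of 7 were called by diet in either kit with edgeR or DESeq2 (1 in each kit at an unadjusted p under 0.05).

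Mitochondrially encoded genes took a larger share of the counts in 3’-LEXO than in Trad-KAPA. This came with more rRNA and, summed over the mRNA genes as counted, less mRNA. The total Trad-KAPA share was 3.84%, 3.59% and 4.11% in control mice 1, 2 and 3 and 3.38%, 3.68% and 3.69% in iron-loaded mice 1, 2 and 3. The 3’-LEXO share was 4.87%, 5.34% and 5.71% in control mice and 4.25%, 5.96% and 5.37% in iron-loaded mice. All 6 3’-LEXO libraries lay above all 6 Trad-KAPA libraries. The mean was 3.72% ± 0.244 (SD, n = 6) in Trad-KAPA and 5.25% ± 0.611 (SD, n = 6) in 3’-LEXO, and the difference within a mouse was 1.54 ± 0.513 percentage points (SD), higher in 6 of 6 mice (exact two-sided sign-flip permutation test, p = 0.0313, adjusted over 4 comparisons p = 0.0313, the smallest p that 6 mice allow).

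**Figure D1:**
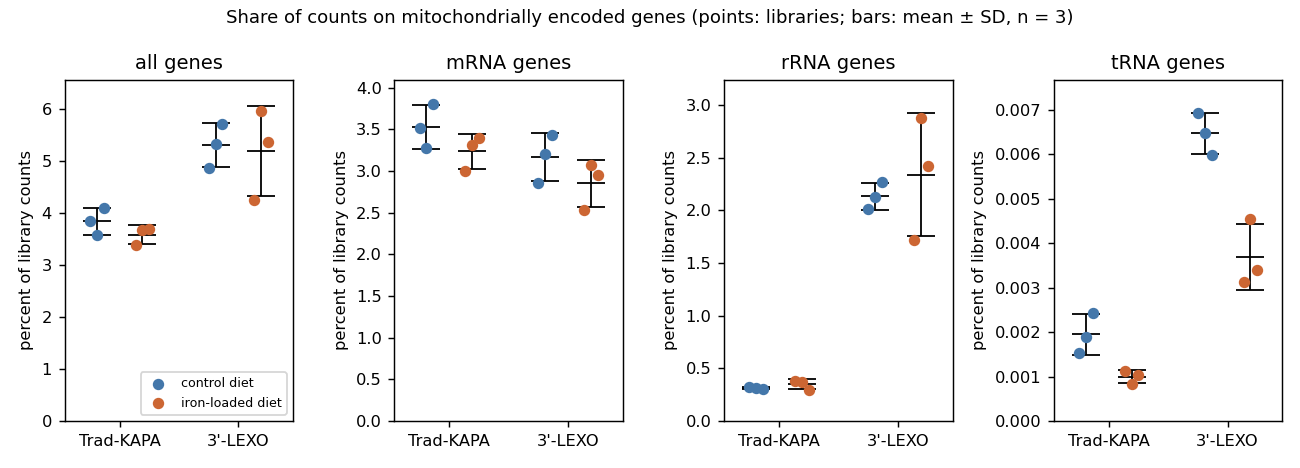
Percent of each library's counts on mitochondrially encoded genes, in total and by class, by kit (x axis) and diet (color). Points are libraries in the order of mouse number, and bars are the mean ± SD (n = 3). The rRNA panel shows 3’-LEXO far above Trad-KAPA, and in the tRNA panel the 3 iron-loaded libraries lie below the 3 control libraries in both kits.

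By class, the 2 rRNA genes, mt-Rnr1 (12S) and mt-Rnr2 (16S), took 0.329% ± 0.0369 (SD, n = 6) of all counts in Trad-KAPA and 2.24% ± 0.395 (SD, n = 6) in 3’-LEXO. This difference of 1.91 ± 0.398 percentage points (SD) was higher in 6 of 6 mice. The mRNA genes took 3.39% ± 0.267 in Trad-KAPA and 3.01% ± 0.309 in 3’-LEXO (SD, n = 6), a difference of -0.375 ± 0.204 percentage points that was lower in 6 of 6 mice. Single mRNA genes went both ways. Mean levels by Trad-KAPA and 3’-LEXO were 8649 and 554 CPM for mt-Co1 and 4964 and 449 CPM for mt-Nd5. They were 7021 and 12203 CPM for mt-Cytb and 3237 and 6682 CPM for mt-Nd4. Of the last 300 stretches of mt-Co1, 100% occur in other transcripts, and the mRNA share without this gene was not computed. The tRNA genes took 0.00147% ± 0.000604 and 0.00508% ± 0.00162 (SD, n = 6), which was higher in 3’-LEXO in 6 of 6 mice. Each of these 3 differences had p = 0.0313 by the same exact test. Within the mitochondrial counts, mRNA genes held 91.0% ± 1.44 and rRNA genes 8.92% ± 1.45 by Trad-KAPA (SD, n = 6). By 3’-LEXO they held 57.5% ± 3.48 and 42.4% ± 3.50 (SD, n = 6). These percentages and the shares above cover only what was counted. mt-Atp8 and mt-Nd4l had no row, and mt-Co2, mt-Co3, mt-Atp6 and mt-Nd3 had hardly any counts. Of the 50-base stretches of mt-Co1 and mt-Nd4, 51.1% and 62.2% are shared. The percentages are thus not read as the composition of mitochondrial RNA in the liver.

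Levels of different genes were compared as CPM per kilobase of transcript. In Trad-KAPA the order began with mt-Cytb (cytochrome b of complex III) at 6137 ± 777, mt-Nd1 (complex I) at 6015 ± 555, mt-Co1 (the catalytic subunit of cytochrome c oxidase) at 5598 ± 766 and mt-Nd2 (complex I) at 3819 ± 412 CPM per kilobase (SD, n = 6). The ranges of neighbours overlapped among these 4. They were followed by the complex I subunits mt-Nd5 at 2721 ± 219 and mt-Nd4 at 2349 ± 299 CPM per kilobase, whose ranges overlapped each other but not that of mt-Nd2. Both rRNA genes came after them, mt-Rnr1 at 1410 ± 109 and mt-Rnr2 at 1228 ± 228 CPM per kilobase. Last of those with counts in every library was mt-Nd6, the complex I subunit encoded on the other strand, at 506 ± 92.2 CPM per kilobase.

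In 3’-LEXO the order per kilobase was another one. Here mt-Rnr2 led with 11620 ± 2100 CPM per kilobase (SD, n = 6), its range overlapping that of mt-Cytb at 10667 ± 1437. A second group, in which each neighbour's range overlapped the next, held mt-Nd1 at 5816 ± 428, mt-Nd4 at 4849 ± 521, mt-Nd2 at 4455 ± 859 and mt-Rnr1 at 4171 ± 829 CPM per kilobase. Below a wide gap stood mt-Co1 at 359 ± 68.0, mt-Nd5 at 246 ± 32.8 and mt-Nd6 at 37.7 ± 12.1 CPM per kilobase. Reads of this kit come from transcript ends, so a value per kilobase understates long genes relative to short ones. Both orders also depend on the length used. Taken per unshared stretch of 50 bases and scaled to a kilobase of them, Trad-KAPA was led by mt-Co1 at 11832 ± 1619 CPM, ahead of mt-Nd4 at 6449 ± 822, mt-Cytb at 6411 ± 811 and mt-Nd1 at 6340 ± 585 CPM (SD, n = 6). On that scale 3’-LEXO was led by mt-Nd4 at 13312 ± 1430 CPM, ahead of mt-Rnr2 at 12118 ± 2189 and mt-Cytb at 11145 ± 1501 CPM (SD, n = 6).

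**Figure D2:**
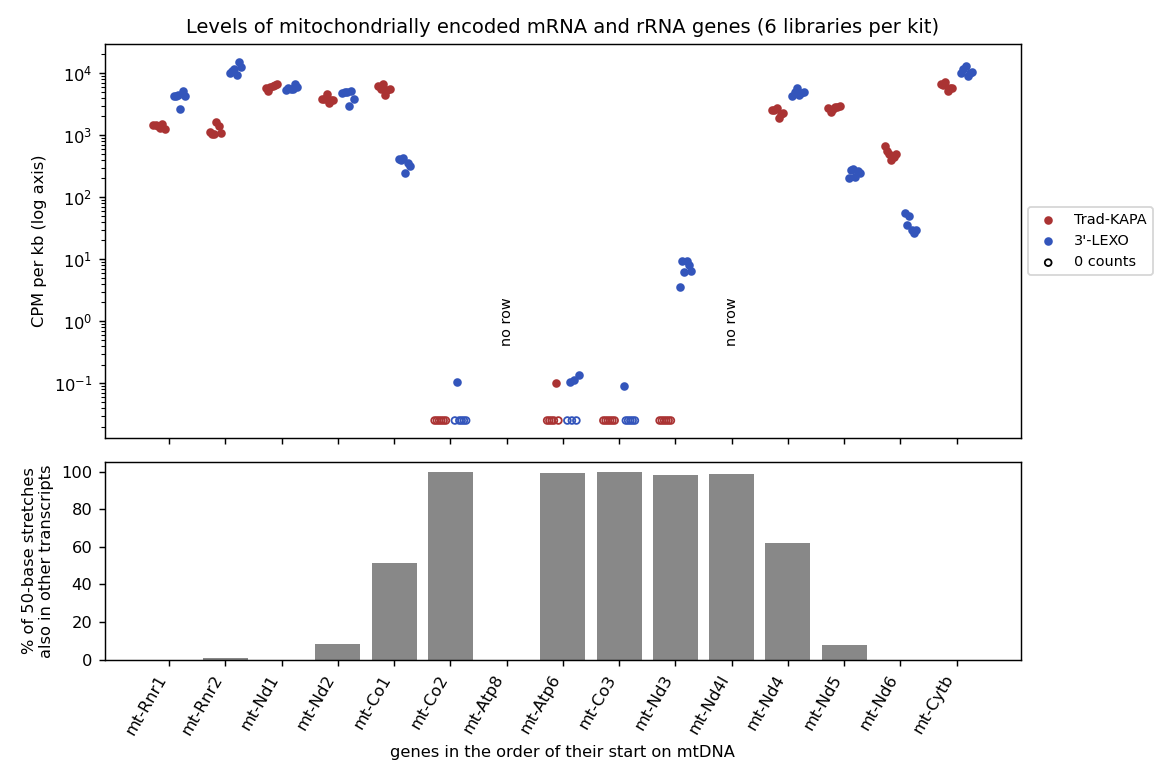
Level of each mitochondrially encoded mRNA and rRNA gene (CPM per kilobase, log axis) in the 6 libraries of each kit, with genes in their order along mtDNA. Filled points are libraries with counts and open points at the bottom are libraries with 0 counts. The lower panel gives the percent of a gene's 50-base stretches that also occur in annotated transcripts of other genes, where the genes from mt-Co2 to mt-Nd4l that have a row and a bar near 100% are those with hardly any counts.

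With the genes of the shared block left aside, the kits differed most for mt-Rnr2, mt-Co1, mt-Nd5, mt-Nd6 and the tRNA genes. In the edgeR fit over the 12 libraries, 15 of the 17 mitochondrially encoded genes that passed the expression filter differed between kits at an adjusted p under 0.05, 10 higher and 5 lower in 3’-LEXO. The 17 and the 10 higher include mt-Nd3 of the shared block, whose counts were not read as levels. Over all genes tested the share was 77.0% (39.2% higher and 37.8% lower). The rRNA gene mt-Rnr2 had 1801, 1679 and 1670 CPM in control mice 1, 2 and 3 and 2537, 2236 and 1731 CPM in iron-loaded mice 1, 2 and 3 in Trad-KAPA. Its 3’-LEXO levels were 15975, 17154 and 18379 CPM in control mice and 14688, 23962 and 20137 CPM in iron-loaded mice. The 3’-LEXO level was higher by a mean of 9.71-fold ± 2.13 (SD, n = 6 mice, range 5.79 to 11.6), with a fitted log2 fold change of 3.26 ± 0.15 (SE, edgeR adjusted p = 3.77e-11). For mt-Rnr1 the levels in mice 1, 2 and 3 were 1394, 1415 and 1354 CPM (control) and 1257, 1470 and 1191 CPM (iron-loaded) by Trad-KAPA. By 3’-LEXO they were 4123, 4131 and 4285 CPM in control mice and 2477, 4836 and 4048 CPM in iron-loaded mice. The kits did not overlap, and the log2 fold change of 3’-LEXO over Trad-KAPA was 1.57 ± 0.15 (SE, edgeR adjusted p = 1.06e-07).

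Among the mRNA genes whose counts were read as levels, mt-Co1 showed the largest kit difference. Its Trad-KAPA levels were 9520, 8641 and 10241 CPM in control mice 1, 2 and 3 and 6779, 8223 and 8489 CPM in iron-loaded mice 1, 2 and 3, against 631, 613 and 660 CPM and 377, 549 and 495 CPM in 3’-LEXO. Trad-KAPA exceeded 3’-LEXO by a mean of 15.8-fold ± 1.46 (SD, n = 6 mice), a log2 fold change of -3.97 ± 0.14 (SE, edgeR adjusted p = 2.95e-12). Of its last 300 stretches, 100% occur in other transcripts. For mt-Nd4 that share was 0%, and the gene was 2.08-fold ± 0.211 higher in 3’-LEXO (SD, n = 6 mice). For mt-Nd5 it was 1.67%, and the gene was a mean of 11.3-fold ± 2.06 higher in Trad-KAPA. For mt-Nd6 it was 0%, and the gene was 14.02-fold ± 2.75 higher in Trad-KAPA (SD, n = 6 mice). The part of sharing in these kit differences was not tested. The log2 fold changes of 3’-LEXO over Trad-KAPA were -3.46 ± 0.13 for mt-Nd5 and -3.77 ± 0.14 for mt-Nd6 (SE, edgeR adjusted p = 3.82e-12 and 6.34e-12). The genes mt-Nd5 and mt-Nd6 overlap at bases 13552 to 13565 on opposite strands, and whether counting used strand is not given in the sources used here.

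mt-Cytb, mt-Nd4, mt-Nd1 and mt-Nd2 differed less between the kits. mt-Cytb had 7528, 7270 and 8348 CPM in control mice 1, 2 and 3 and 5805, 6512 and 6660 CPM in iron-loaded mice 1, 2 and 3 in Trad-KAPA, and 11477, 13524, 14701, 10143, 11350 and 12024 CPM in the same mice in 3’-LEXO. It was 1.74-fold ± 0.115 higher in 3’-LEXO (SD, n = 6 mice), with a log2 fold change of 0.80 ± 0.12 (SE, edgeR adjusted p = 1.22e-05). For mt-Nd4 the levels in the same order were 3475, 3451, 3776, 2612, 3030 and 3080 CPM in Trad-KAPA and 5989, 6708, 7963, 6014, 6661 and 6759 CPM in 3’-LEXO. These did not overlap between kits either. For mt-Nd1 they did, with 5416, 4873, 5813, 5978, 6136 and 6322 CPM in Trad-KAPA and 5194, 5489, 5343, 5310, 6305 and 5753 CPM in 3’-LEXO. The log2 fold change of mt-Nd1 between kits was -0.04 ± 0.10 (SE, edgeR adjusted p = 0.705). That of mt-Nd2 was 0.22 ± 0.13 (SE, edgeR adjusted p = 0.142), and with the mouse as a replicate block it was 0.21 (adjusted p = 0.00898).

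**Figure D3:**
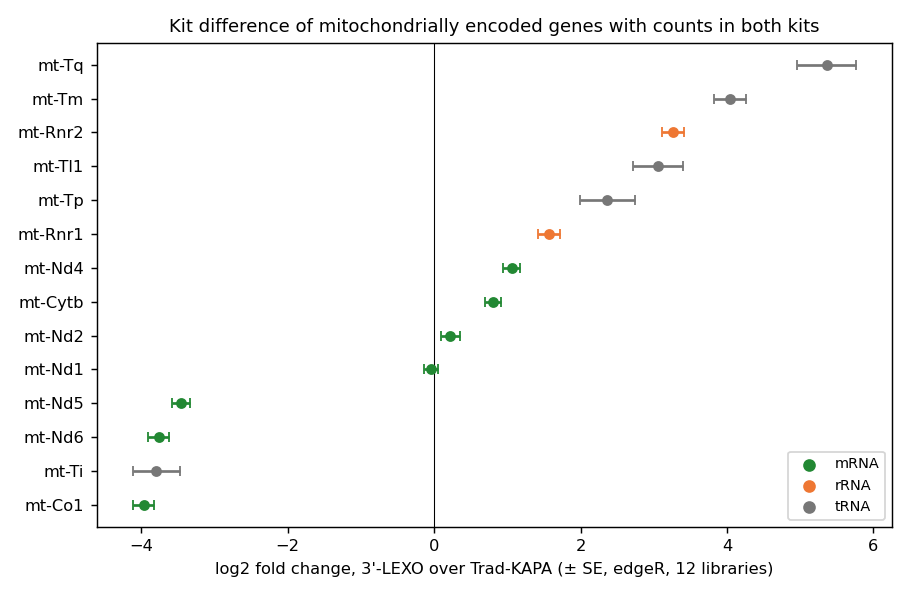
Fitted log2 fold change of 3’-LEXO over Trad-KAPA (x axis) for the mitochondrially encoded genes with counts in both kits that passed the expression filter, with bars of ± SE. Genes of the rRNA class and 4 of the 5 tRNA genes lie to the right of 0, and mt-Co1, mt-Ti, mt-Nd6 and mt-Nd5 lie to the left, between -3.97 and -3.46.

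The tRNA genes were few in counts, and each kit picked up different ones. In Trad-KAPA the highest were mt-Ti, mt-Tw (tryptophan) and mt-Tm, and in 3’-LEXO they were mt-Tm, mt-Tl1 and mt-Tq. mt-Tw had 36, 29 and 39 counts in control mice 1, 2 and 3 and 66, 8 and 12 in iron-loaded mice in Trad-KAPA, and 0 in all 6 3’-LEXO libraries. Against a floor of 3 counts per library in CPM, it was at least 9.17-fold lower in 3’-LEXO. mt-Ta (alanine) was the reverse, with 22, 19 and 11 counts in control mice and 2, 8 and 2 in iron-loaded mice in 3’-LEXO and 0 in Trad-KAPA, so that it was at least 3.88-fold higher in 3’-LEXO. mt-Tl1 had 123, 54 and 67 counts in control mice and 123, 40 and 43 in iron-loaded mice in 3’-LEXO, against 9, 8 and 7 and 21, 9 and 7 in Trad-KAPA. Its log2 fold change of 3’-LEXO over Trad-KAPA was 3.05 ± 0.34 (SE, edgeR adjusted p = 8.66e-07). The fitted value of mt-Tq was 5.36 ± 0.40 and that of mt-Ti was -3.79 ± 0.32 (SE, edgeR adjusted p = 9.25e-09 and 3.54e-08), each resting on the low counts in its lower kit given below. The remaining tRNA genes, mt-Tf, mt-Tv, mt-Tc, mt-Th, mt-Ts2, mt-Tl2, mt-Te, mt-Tt and mt-Tp, had from 0 to 26 counts in any library. Counting error alone is large at such numbers.

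The share of all mitochondrially encoded genes did not differ detectably between the diets. It was 3.84% ± 0.260 on the control diet and 3.59% ± 0.176 on the iron-loaded diet in Trad-KAPA (SD, n = 3, exact two-sided permutation test, p = 0.3), and 5.31% ± 0.418 and 5.20% ± 0.866 in 3’-LEXO (SD, n = 3, p = 1 by the same exact test). With 3 against 3 mice this test cannot go below 0.1. The Trad-KAPA difference moved from -0.258 to -0.156 percentage points without iron-loaded mouse 1, to -0.127 without control mouse 3 and to -0.387 without control mouse 2. Without iron-loaded mouse 1 the 3’-LEXO difference turned from -0.112 to 0.358, and without control mouse 3 to 0.0884. By class, on the control and iron-loaded diets mRNA genes held 3.53% and 3.24% of Trad-KAPA counts and 3.17% and 2.85% of 3’-LEXO counts. The rRNA genes held 0.310% and 0.347%, and 2.13% and 2.34%. Their exact p-values were 0.3 to 0.7. Without iron-loaded mouse 1 the mRNA difference shrank from -0.294 to -0.176 percentage points by Trad-KAPA and from -0.313 to -0.153 by 3’-LEXO, and that of the rRNA genes went from 0.0370 to 0.0209 and from 0.203 to 0.514. The rRNA difference by 3’-LEXO turned to -0.0674 without iron-loaded mouse 2. Counts on tRNA genes were lower on the iron-loaded diet, at 0.512 of the control share by Trad-KAPA and 0.570 of it by 3’-LEXO. The diets did not overlap in either kit (exact two-sided permutation test, p = 0.1 in each, n = 3, the smallest possible), and both kits used the same RNA. These ratios were 0.480 and 0.613 without iron-loaded mouse 1.

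Few tRNA genes held most of the counts behind this class difference. Summed over the 3 mice of a diet, the class had 870 counts on the control and 423 on the iron-loaded diet by Trad-KAPA, of which mt-Ti had 579 and 198. By 3’-LEXO it had 2723 and 1269, of which mt-Tm had 1948 and 879 and mt-Tq 330 and 77. Without mt-Ti, mt-Tm and mt-Tq the remaining tRNA genes held 0.000331% of Trad-KAPA counts on the control and 0.000381% on the iron-loaded diet, which is higher. By 3’-LEXO they held 0.000984% and 0.000835%, and the diets overlapped. Iron-loaded mouse 1 weighed on both comparisons. By Trad-KAPA it had 66 mt-Tw counts, against 8 and 12 in iron-loaded mice 2 and 3 and 29 to 39 in control mice. By 3’-LEXO it had 123 mt-Tl1 counts, against 40 and 43 in those 2 mice and 54 to 123 in control mice. These shares were not computed without that mouse, so nothing is read from them about the remaining tRNA genes in the other mice. In Trad-KAPA the summed counts of mt-Tl1 were 24 and 37, those of mt-Tp 10 and 16 and those of mt-Tt 1 and 15. In 3’-LEXO mt-Tl1 had 244 and 206, at mean levels of 5.80 and 5.69 CPM. These sums are not scaled to depth. The 3’-LEXO iron-loaded libraries held 10724672 to 13039605 counts, against 13975241 to 14104236 in the control libraries.

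In Trad-KAPA mt-Ti was the mitochondrially encoded gene that passed the diet test. It had 154, 193 and 232 counts in control mice 1, 2 and 3 and 40, 76 and 82 counts in iron-loaded mice 1, 2 and 3. These are levels of 9.30, 12.9 and 16.8 CPM against 2.86, 5.19 and 5.89 CPM, and the diets did not overlap. The log2 fold change was -1.55 ± 0.32 (SE, edgeR adjusted p = 0.0174), and without iron-loaded mouse 1 it was -1.26 (adjusted p = 0.0125). The call was lost without control mouse 2 (adjusted p = 0.0572) and without control mouse 3 (adjusted p = 0.0600). Over all genes tested, the calls fell from 2255 to 841 and 1033 in these fits. Of the 12 mitochondrially encoded genes that passed the filter in this kit, 1 was called, and it was lower. Of all 13151 genes tested 17.1% were called, with 8.37% lower and 8.77% higher. In 3’-LEXO mt-Ti had only 11, 10 and 10 counts in control mice and 7, 9 and 1 in iron-loaded mice and did not pass the filter. In liver tissue, fewer cells of a type and less RNA per cell cannot be told apart.

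**Figure D4:**
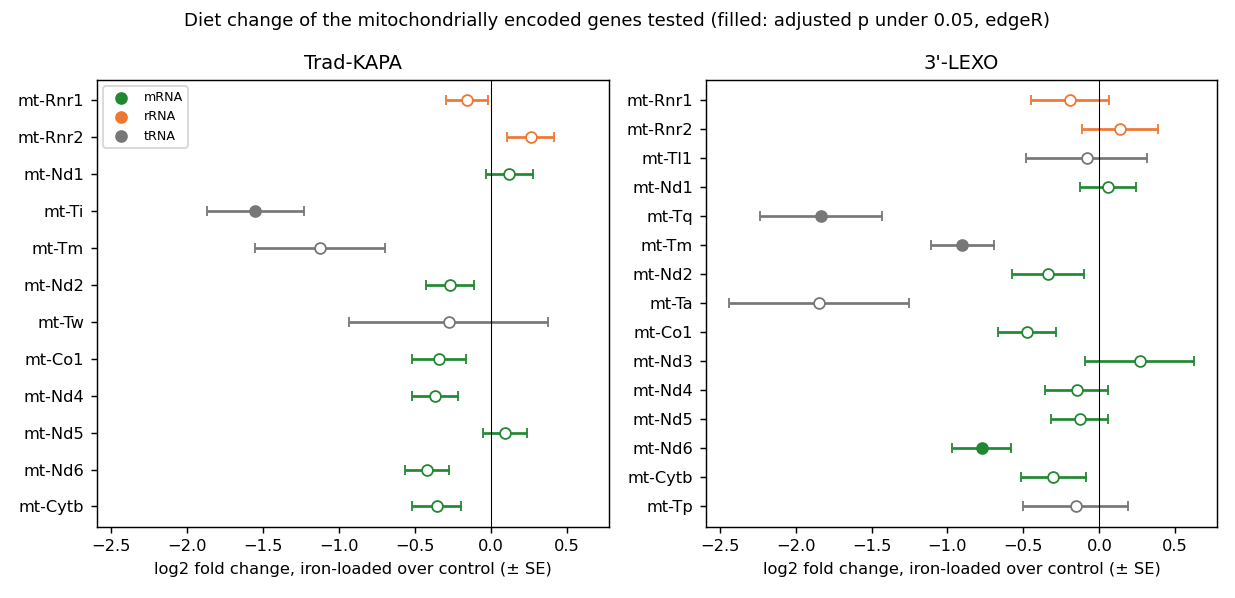
Fitted log2 fold change of the iron-loaded over the control diet (x axis, ± SE) in each kit for the mitochondrially encoded genes that passed the expression filter, in their order along mtDNA. Filled points had an edgeR adjusted p under 0.05, namely mt-Ti in Trad-KAPA and mt-Tq, mt-Tm and mt-Nd6 in 3’-LEXO, all to the left of 0.

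The 3’-LEXO libraries gave 3 called genes of 15 that passed the filter, all lower on the iron-loaded diet, where 6.10% of the 13301 genes tested were called and 2.92% were lower. The 15 include mt-Nd3, whose counts were not read as levels. mt-Tq had 110, 139 and 81 counts in control mice 1, 2 and 3 and 13, 41 and 23 in iron-loaded mice 1, 2 and 3. Its level was 7.85 ± 2.10 CPM on the control diet and 2.30 ± 1.42 CPM on the iron-loaded diet (SD, n = 3), without overlap. The log2 fold change was -1.83 ± 0.40 (SE, edgeR adjusted p = 0.0307), and -1.44 without iron-loaded mouse 1 (adjusted p = 0.0190). In Trad-KAPA mt-Tq had 1 to 4 counts and was not tested. The gene shares bases 3772 to 3774 with mt-Ti on the opposite strand.

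mt-Tm was nearly even across the control 3’-LEXO libraries, with 656, 645 and 647 counts (46.9, 46.2 and 45.9 CPM) in mice 1, 2 and 3. The iron-loaded libraries had 245, 357 and 277 counts (18.8, 33.3 and 25.2 CPM) and did not overlap with them. The log2 fold change was -0.90 ± 0.21 (SE, edgeR adjusted p = 0.0361), and -0.70 without iron-loaded mouse 1 (adjusted p = 0.0230). In Trad-KAPA it had 38, 42 and 54 counts in control mice and 10, 18 and 33 in iron-loaded mice, where the level of iron-loaded mouse 3 (2.37 CPM) lay above that of control mouse 1 (2.30 CPM). Its log2 fold change there was -1.12 ± 0.43 (SE, edgeR adjusted p = 0.103).

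mt-Nd6 was the mRNA gene called in 3’-LEXO. It had 402, 254 and 367 counts in control mice 1, 2 and 3 and 200, 147 and 170 in iron-loaded mice 1, 2 and 3, at 24.3 ± 5.48 and 14.8 ± 0.977 CPM (SD, n = 3). The diets did not overlap, and the log2 fold change was -0.78 ± 0.20 (SE, edgeR adjusted p = 0.0477). Without iron-loaded mouse 1 it was the same size at -0.78 but not called (adjusted p = 0.0554). In Trad-KAPA the counts were 5667, 4218 and 3601 in control mice and 2851, 3337 and 3607 in iron-loaded mice. In CPM these diets did not overlap either (260 to 342 against 204 to 259), and the log2 fold change was -0.42 ± 0.15 (SE, edgeR adjusted p = 0.0791), or -0.31 without iron-loaded mouse 1 (adjusted p = 0.101). All 3 calls in 3’-LEXO were lost in at least 4 of the 6 fits that left out a mouse. Over all genes tested, the calls fell from 811 to 326, 263, 199 and 346 without control mouse 1, 2 or 3 or iron-loaded mouse 3. They were 871 and 771 without iron-loaded mice 1 and 2.

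**Figure D5:**
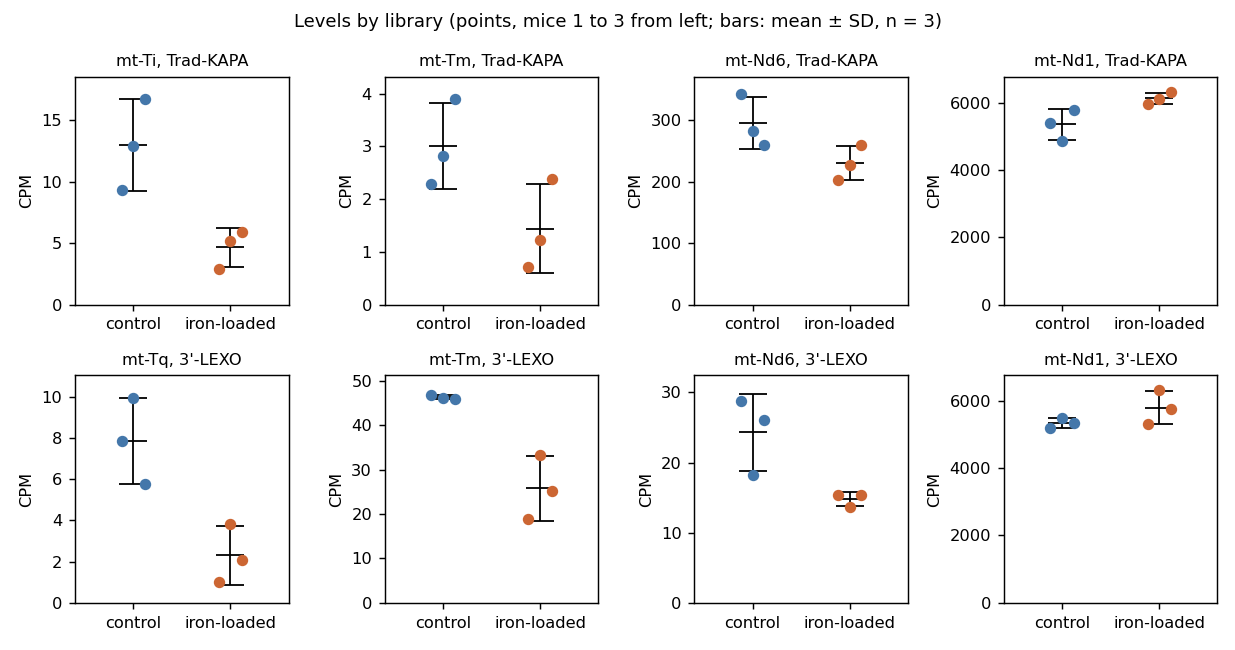
Level in CPM of the genes called in either kit and of mt-Nd1 for reference, by diet (x axis). Points are libraries of mice 1 to 3 from left to right, and bars are the mean ± SD (n = 3). In the panels of a gene in the kit that called it (mt-Ti in Trad-KAPA, the others in 3’-LEXO), the iron-loaded points lie below the control points, while those of mt-Nd1 lie at or above 5194 CPM in 3’-LEXO on both diets.

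The abundant mRNA and rRNA genes did not pass the diet test in either kit. In Trad-KAPA the log2 fold changes were -0.36 ± 0.15 for mt-Nd4, -0.36 ± 0.16 for mt-Cytb, -0.34 ± 0.18 for mt-Co1 and -0.27 ± 0.16 for mt-Nd2 (SE, edgeR adjusted p = 0.129 to 0.268), and in all 4 the diets did not overlap in CPM. For mt-Nd1 and mt-Nd5 they were 0.12 ± 0.15 and 0.10 ± 0.14, with the iron-loaded libraries above the control libraries. The rRNA genes stood at -0.15 ± 0.14 (mt-Rnr1) and 0.26 ± 0.16 (mt-Rnr2). mt-Tw was at -0.28 ± 0.65, and at -1.74 without iron-loaded mouse 1 (edgeR adjusted p = 0.0143), whose 66 counts were the highest. In this kit 6 of 12 genes tested had all iron-loaded libraries below all control libraries (16.6% of all genes tested) and 2 had them above (24.7%). In 3’-LEXO mt-Co1 was at -0.48 ± 0.19 (SE, edgeR adjusted p = 0.153), without overlap, and mt-Ta at -1.85 ± 0.59 on 2 to 22 counts (adjusted p = 0.0914). Those of mt-Nd2, mt-Cytb, mt-Nd4, mt-Nd5 and mt-Rnr1 ran from -0.34 to -0.13 and those of mt-Nd1, mt-Rnr2 and mt-Nd3 from 0.06 to 0.27, with mt-Tl1 at -0.08 ± 0.40 and mt-Tp at -0.16 ± 0.34. Here 5 of 15 genes lay wholly below (12.8% of all genes tested) and 0 wholly above (18.5%). These 15 again include mt-Nd3, whose counts were not read as levels. The median log2 fold change was -0.31 over the 12 genes in Trad-KAPA, beside 0.02 over all genes tested, and -0.19 over the 15 in 3’-LEXO, beside 0.01. When a mouse was left out, the Trad-KAPA median ran from -0.40 to -0.20, the latter without control mouse 3, and the 3’-LEXO median from -0.43 without iron-loaded mouse 2 to -0.22. The filter passed 15 to 17 mitochondrially encoded genes in these 3’-LEXO fits, so those medians are not all over the same genes.

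No difference between the kits in the diet change was detected. Of the 17 mitochondrially encoded genes tested for it, 0 passed (edgeR interaction test), 0 had an unadjusted p under 0.05, and DESeq2 called 0 as well, where edgeR called 0% of all 14384 genes tested. The genes mt-Nd3, mt-Ta and mt-Tw could not pass, since each had 0 counts in every library of 1 kit (SE 517, 3875 and 1117). For mt-Tq the test rested on 1 to 4 counts in Trad-KAPA. A gene called in 1 kit and not in the other, such as mt-Tm, is therefore not shown to change differently between them.

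Some markers of other cells moved with the diet in the same libraries, and others did not. The summed level of 6 Kupffer cell markers (liver macrophages) was 332 to 515 CPM on the control diet and 591 to 648 CPM on the iron-loaded diet in Trad-KAPA, and 1006 to 1343 and 1330 to 1539 CPM in 3’-LEXO. The diets overlapped in 3’-LEXO. Marco was called higher in both kits and Vsig4 in Trad-KAPA, with 0 of the 6 at 0. The 4 neutrophil markers summed to 1.01 to 1.75 and 4.00 to 7.45 CPM in Trad-KAPA and to 7.66 to 17.4 and 27.6 to 58.7 CPM in 3’-LEXO, with S100a8 and S100a9 higher in both kits. Of these 4 markers 1 was at 0 in the control group of Trad-KAPA and in the iron-loaded group of 3’-LEXO. The 4 red cell markers summed to 19.6 to 151 CPM on the control diet and 16.4 to 28.7 CPM on the iron-loaded diet in Trad-KAPA, and 0 of 4 were called by either tool, with all 4 at an unadjusted p under 0.05 in each kit. Of 5 sinusoidal endothelial markers Lyve1 was called higher in both kits and Stab2 lower in 3’-LEXO. Their part in the lower tRNA and mt-Nd6 counts was not tested.

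Nuclear genes that copy, transcribe and process mtDNA were followed as a list of 78 genes, all with a row. In Trad-KAPA 14 of 77 tested were called, 4 higher and 10 lower, beside 17.1% of all genes tested, and in 3’-LEXO 1 of 76, which was lower, beside 6.10%. With library totals only the Trad-KAPA calls were 4 higher and 3 lower, and those over all genes went from 1154 higher and 1101 lower to 1339 and 838. The list gave 13 Trad-KAPA calls and 2 by 3’-LEXO without iron-loaded mouse 1, beside 2803 and 871 over all genes. The gene called in both kits was Mgme1, a nuclease that trims mtDNA ends during replication. Mgme1 had 6.16, 8.37 and 7.16 CPM in control mice 1, 2 and 3 and 3.36, 3.28 and 3.95 CPM in iron-loaded mice 1, 2 and 3 by Trad-KAPA. By 3’-LEXO it had 13.1, 17.2 and 17.6 CPM and 8.51, 9.88 and 9.36 CPM. The diets did not overlap in either kit, and the log2 fold changes were -1.10 ± 0.19 and -0.85 ± 0.18 (SE, edgeR adjusted p = 0.00988 and 0.0286). They were -1.03 and -0.77 without iron-loaded mouse 1 (adjusted p = 0.0108 and 0.0347). The 3’-LEXO call was lost without control mouse 2, control mouse 3 or iron-loaded mouse 3 (adjusted p = 0.0763 to 0.109).

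The counts for its sub-lists of 7 to 20 genes stand beside the 8.37% of all genes called lower and the 8.77% called higher in Trad-KAPA. Nothing is read from them about a sub-list. Of the 10 genes for mtDNA replication and nucleotide supply, 4 were called in Trad-KAPA, all lower: Mgme1, the mtDNA polymerase Polg, the topoisomerase Top1mt and the deoxyguanosine kinase Dguok. The median log2 fold change of these 10 was -0.41 by Trad-KAPA and -0.35 by 3’-LEXO, beside 0.02 and 0.01 over all genes tested. This was the lowest median of any sub-list. The others ran from -0.23 to 0.20 by Trad-KAPA and from -0.22 to 0.21 by 3’-LEXO. Over the whole list the median was -0.05 and -0.06. Of 11 genes for mitochondrial RNA processing, Fastkd2 and Trnt1 were called higher in Trad-KAPA and 0 lower. Trnt1, which adds the CCA end to tRNAs, had 9.85, 9.51 and 9.61 CPM in control mice and 21.99, 15.3 and 15.3 CPM in iron-loaded mice, and its log2 fold change was 0.78 ± 0.15 in Trad-KAPA (SE, edgeR adjusted p = 0.0141) and 0.77 ± 0.21 in 3’-LEXO (adjusted p = 0.0624). Without iron-loaded mouse 1, whose Trad-KAPA level was the highest, these were 0.63 (adjusted p = 0.00743) and 0.57 (adjusted p = 0.129), and the Trad-KAPA call was lost without control mouse 2 (adjusted p = 0.0574). For RNA modification Nsun3 was called higher and Mrm2 and Mto1 lower among 12 genes, and for aminoacyl-tRNA synthesis Cars2, Gatb and Pars2 were called lower among 20. In the transcription list Mterf4 was called lower among 9 tested, and among 7 regulators Pprc1 was called higher. The 8 genes for RNA tailing, stability and decay gave 0 calls with edgeR and DESeq2 in both kits, and 0 and 2 of them had an unadjusted p under 0.05. Over the list, 4 or 5 genes were called in Trad-KAPA when any other mouse than iron-loaded mouse 1 was left out, 14 with DESeq2 and 15 without the filter. In those fits without a mouse the calls over all genes tested fell from 2255 to between 841 and 1239. With DESeq2 they were 2431, and without the filter 2866.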

How the data were processed

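The authors sequenced single-end reads of 50 bases, mapped them with STAR 2.5.3a to GRCm38 and deposited, for each gene, the raw count of reads mapped uniquely to its exons. The counting program, its strand setting and the annotation release are not given in the sources used here. Libraries were grouped by kit and diet from their labels. Symbols, classes, lengths and sequences came from GENCODE M21 (same build), which held 26940 of 27022 identifiers. Genes and lists were chosen with earlier results of these data known.

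Counts were fitted over all genes in R 4.3.3 with the quasi-likelihood test of edgeR 4.0.16 (limma 3.58.1), after filterByExpr and TMM scaling. P-values were adjusted by the Benjamini-Hochberg method and called under 0.05, and DESeq2 1.42.0 was an alternative. The main edgeR fit and the DESeq2 fit of each comparison were tested on simulated data, and the other settings were not. Diet was tested within each kit, and kit and the interaction over 12 libraries. CPM used library totals, and shares were compared with exact permutation tests. The tests of classes by diet and their alternatives were chosen after the data were seen.

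Values in every library were given for genes called by diet, the 3 highest mRNAs per kilobase and the 3 highest tRNAs in each kit, both rRNAs, mt-Nd6, mt-Tq, mt-Nd4, and the 3 largest and 3 smallest kit ratios. Machinery genes called in both kits were named by rule, and the other called ones were added after their values were seen. The mouse pairs the kits (r of deviations 0.444 to 0.770 over 10326 genes), since both libraries came from the same RNA. For iron-loaded mouse 2 (r 0.522) the Trad-KAPA library correlated more with the 3’-LEXO library of another iron-loaded mouse. The values thus do not show the pairing of that mouse, which rests on the labels. Floors cover counting error only. Other settings tried were other scalings, no filter, DESeq2, equal depth, a replicate block, other denominators and leaving out each mouse.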

Additional observations from a re-analysis of the deposited data

How the results depend on the processing

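In the Trad-KAPA diet test 2 mitochondrially encoded genes instead of 1 were called without the filter, with DESeq2 and with a replicate block, and 0 to 2 when a mouse was left out. In 3’-LEXO 1 instead of 3 were called with a replicate block and 0 to 3 when a mouse was left out, with 0 without control mouse 1, control mouse 3 or iron-loaded mouse 3. The machinery list gave 14 calls in Trad-KAPA, 7 with library totals only, 9 with a replicate block, 14 with DESeq2, 15 without the filter and 4 to 13 without a mouse. In 3’-LEXO it gave 1 call, 2 with library totals only, 6 without the filter, 3 with DESeq2, 2 at 10000000 drawn counts and 0 to 2 without a mouse. The cause was not tested. Replicate numbers do not pair mice across diets (r -0.168 to 0.10). Over all genes 3’-LEXO calls went from 811 to 2040 without the filter, 1313 with DESeq2, 436 with a replicate block and 199 to 871 without a mouse. Those of Trad-KAPA went from 2255 to 2866, 2431, 1922 and 841 to 2803 in the same settings. With library totals only they were 2177.

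Differences in share between kits stayed in direction in each fit without a mouse, at 1.39 to 1.67 percentage points in all, -0.436 to -0.318 for mRNA, 1.79 to 2.02 for rRNA and 0.00325 to 0.00393 for tRNA genes, but 5 mice cannot give a p below 0.0625. The diet difference in share ran from -0.387 to -0.127 in Trad-KAPA and -0.494 to 0.358 in 3’-LEXO. Class shares by diet without a mouse or without mt-Ti, mt-Tm and mt-Tq were computed after seeing the data. For rRNA genes in 3’-LEXO they ran from -0.0674 to 0.514 percentage points, and for tRNA genes in Trad-KAPA the difference turned from -0.000950 to 4.98e-05 without those 3 genes. That last value includes iron-loaded mouse 1 and was not computed without it. Without a mouse, 3’-LEXO log2 fold changes by diet ran from -0.0311 to 0.134 for mt-Nd1 and -0.0579 to 0.319 for mt-Rnr2, both turning without iron-loaded mouse 2, and from -0.431 to 0.0465 for mt-Rnr1, turning without iron-loaded mouse 1. The ranges were -0.643 to 0.326 for mt-Tl1, -0.350 to 0.0581 for mt-Tp and -0.0382 to 0.614 for mt-Nd3, and in Trad-KAPA -1.74 to 0.164 for mt-Tw. Over 48 named log2 fold changes and all their alternatives, 580 values kept direction and call, 10 gained a call, 22 lost it and 10 turned. Those by diet of mt-Tw, mt-Tl1, mt-Tp, mt-Nd3, Mgme1 and Trnt1 were added after seeing the data. Low counts limit the precision for most tRNA genes.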
